A study of Sus scrofa with 33 samples.

Results

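The control arm of a pig model of acute right ventricular failure was examined over its last step, in which pulmonary banding went on for a further 60 min after an initial 120 min. Pulmonary banding narrows the pulmonary artery and so raises the pressure against which the right ventricle ejects. The comparison was chosen by the sample labels: the 5 control arrays labelled 60 min of banding, taken as the last biopsy, were set against the 5 control arrays labelled 120 min, pig by pig. These are 10 of the 33 arrays in the series, which holds 11 pigs (Sus scrofa) with 3 biopsies of the right ventricular free wall each: baseline, 120 min of banding, and the last step. All 11 pigs had the same 120 min of banding and were then randomised, 5 to the control arm and 6 to a modified Glenn shunt, which leads venous blood past the right ventricle. No pig was biopsied over the same hours without banding, so a change between biopsies covers everything that happened in between, repeated sampling included. The sources used here do not give strain, sex, age or anaesthesia. RNA from each biopsy was hybridised to 1 Affymetrix Porcine Genome Array, and all levels below are log2 RMA values, so that a difference of 1 is a doubling. The later change is the value at the last biopsy minus that at 120 min in the same pig, and the first change is the value at 120 min minus that at baseline.

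A right ventricle faced with a sudden rise in afterload stretches its wall and works against more pressure with limited blood flow. Stretched cardiomyocytes are known to switch on immediate early transcription factors within minutes, then stress chaperones and strain-sensing proteins of the sarcomere and intercalated disc. Natriuretic peptides, cytokines and leukocyte adhesion molecules follow, and neutrophils can enter the wall from the blood.

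No transcript changed beyond the threshold over the further 60 min. Of 23999 probe sets (24123 on the array less 124 AFFX controls), 0 (0%) passed an adjusted p of 0.05 in limma with Benjamini-Hochberg adjustment, and the smallest adjusted p was 0.871. At an unadjusted p under 0.05 there were 737 probe sets (3.07%), 316 higher (1.32%) and 421 lower (1.75%). Over the first 120 min the same fit in the same 5 pigs called 1616 probe sets (6.73%), 713 higher (2.97%) and 903 lower (3.76%). Of 6765 genes with a symbol, each read by its brightest probe set alone, 475 were called in that step. Both changes use the arrays at 120 min, so for each gene they are given side by side and no relation between them is drawn.

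The size of the changes showed the same contrast between the steps. Mean changes of over 1.5-fold in either direction were seen in 28 probe sets in the later step and in 713 in the first, and changes of over 2-fold in 4 and 218. The later changes of all probe sets had an SD of 0.11 (log2) and a median of -0.00, against an SD of 0.26 for the first changes. The median standard error (SE) of a later change was 0.10, and its 95% confidence interval reached 0.21 (log2), or 1.16-fold, to either side. For 23081 probe sets (96.2%) the whole interval lay within 1.5-fold of no change, and for 23888 (99.5%) within 2-fold. The other 111 probe sets, among them many of the genes that moved most at 120 min, had intervals that reached past 2-fold, so changes of that size in them were not excluded. Nor were they excluded in all the rest, as each 95% interval stands for 1 probe set alone. No filter removed signal near background or saturation, where a narrow interval does not show a steady level.

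**Figure D1:**
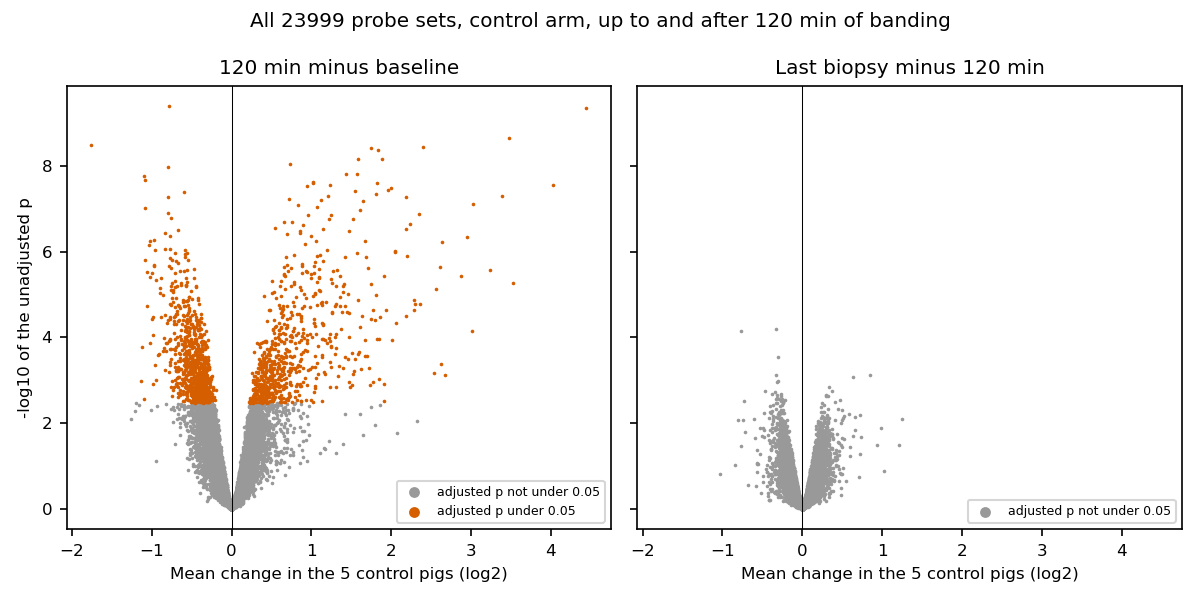
Mean change of each of 23999 probe sets in the 5 control pigs (horizontal axis, log2) against the negative log10 of its unadjusted p (vertical axis), for the step up to 120 min of banding and for the step after it, with probe sets of adjusted p under 0.05 in orange. The first step holds 1616 orange points and the later step none.

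The single pigs moved, but not together. Between the later biopsies 98, 39, 293, 76 and 105 probe sets shifted by over 2-fold in pigs 1 to 5, against 498, 409, 431, 295 and 231 in the first step. Pig 3 stood out with 275 of its 293 shifts upward, and pig 4 with 71 of its 76 downward. Over all probe sets the later changes of 2 pigs correlated with r between -0.48 (pigs 3 and 4) and 0.28, with a median of -0.02 over the 10 pairs, while the first changes correlated with r between 0.11 and 0.58 (median 0.42). These coefficients are across probe sets, which are not independent, and describe the 5 pigs only. In 1066 probe sets (4.44%) the later change had the same direction in all 5 pigs, 431 higher (1.8%) and 635 lower (2.65%), against 4033 (16.8%) for the first change. Random signs in 5 pigs would agree in a share of 0.0625, so a shared direction in 5 of 5 pigs does not by itself show a later change. The values at 120 min and at the last biopsy did not overlap in 71 probe sets (0.296%), 24 higher (0.1%) and 47 lower (0.196%), against 1130 (4.71%) for the first step.

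The array medians lay between 6.10 and 6.17, which the quantile normalisation within RMA brings about. Ventricular cardiomyocyte markers averaged 13.8 to 14.0 in all 15 control biopsies, and MYH7, the slow myosin heavy chain of the ventricle, lay between 14.97 and 15.05 at the later 2 biopsies. The signal of GAPDH at its 3' end minus that at its 5' end is a sign of RNA quality. In the control pigs it averaged 0.76 at baseline, 0.86 at 120 min and 0.82 at the last biopsy. Its later change was -0.32, 0.41, -0.47, 0.30 and -0.13 in pigs 1 to 5. The mean change was -0.04 ± 0.38 (SD, n = 5, exact two-sided sign-flip permutation test, p = 0.750, where 5 pairs cannot go below 0.0625). For actin the same 3' minus 5' measure averaged 4.91, 5.17 and 4.90 at the 3 control biopsies in order, so the 3' signal lay far above the 5' signal throughout. Its later change was -0.84, 0.03, -0.30, 0.11 and -0.38, with a mean of -0.28 ± 0.38 (SD, n = 5, same exact test, p = 0.250). The spiked-in BioB control moved by -0.25, 0.32, -0.18, 0.46 and -0.64. These later changes of GAPDH, actin and BioB were all above 0 in pigs 2 and 4 and below 0 in pigs 1, 3 and 5. The spiked-in controls BioC, BioDn, CreX and PheX split the pigs in the same way, and DapX, LysX and ThrX did so but for pig 3. BioB was at 8.84 or higher on every control array and between 5.82 and 8.54 on the shunt arrays, without overlap, and between the arms this difference and the treatment cannot be told apart. The other 7 spiked-in controls overlapped between the arms.

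Natriuretic peptides, hormones that the strained heart releases to lower pressure and volume, moved in different directions in different pigs. NPPB, which encodes B-type natriuretic peptide, stood at 9.38, 10.75, 9.11, 7.02 and 11.60 at 120 min in pigs 1 to 5 and at 11.70, 11.97, 10.83, 9.03 and 9.47 at the last biopsy. It was thus higher in pigs 1 to 4, by 1.23 to 2.31, and gave -2.13 in pig 5, which had held the highest level at 120 min, and the groups overlapped. The mean later change was 1.02 ± 0.65 (SE; 2.03-fold, 95% interval 0.798 to 5.19-fold), with an adjusted p of 0.9998 in limma with Benjamini-Hochberg adjustment. That adjusted p was the same for all 171 genes named by rule here and is not repeated. Without pig 5 the estimate was 1.81 ± 0.64 (3.52-fold), and its adjusted p was 0.9999 in the same limma fit.

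NPPA, which encodes atrial natriuretic peptide, went from 8.23, 8.04, 9.19, 7.32 and 11.48 to 10.23, 9.09, 8.66, 7.34 and 6.89. Pig 5 had risen to 11.48 from a baseline of 5.97 and then dropped by 4.59, the largest shift of any named gene among the control pigs, while pigs 1 and 2 gained 2.00 and 1.04. The mean of -0.41 ± 0.83 therefore rested on pig 5, and without it the estimate was 0.63 ± 0.67. MYL4, the atrial essential myosin light chain, moved on the same arrays of pig 5, from 7.79 at baseline to 10.15 at 120 min and 8.09 at the last biopsy. The 5 measured markers of atrial or conduction cardiomyocytes, NPPA and MYL4 among them, gave a mean of 0.91, 0.27, -0.49, 0.14 and -1.40 in pigs 1 to 5. Their mean level over all control biopsies ran from 6.95 to 8.56, and their part in the natriuretic peptide values was not tested. In bulk tissue fewer cells of a type and less RNA per cell cannot be told apart.

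Among genes that respond to strain of the cardiomyocyte, XIRP1 and ANKRD1 had risen by 120 min and XIRP2 had not. XIRP1, which encodes the actin-binding intercalated disc protein Xin, had risen by 2.19 ± 0.28 in the first step (adjusted p = 4.32e-05, limma with Benjamini-Hochberg adjustment). It then went from 12.96, 12.50, 12.08, 11.96 and 12.06 to 12.52, 12.55, 12.37, 11.19 and 11.36, which is higher in pigs 2 and 3 and lower in the other pigs (-0.31 ± 0.28). ANKRD1, a titin-associated stretch sensor, had risen by 0.54 ± 0.11 to levels between 13.95 and 14.26. It lay between 13.73 and 14.35 an hour later, an estimate of 0.02 ± 0.11 with an interval from 0.866 to 1.19-fold.

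The related gene XIRP2 (Xin-repeat protein of the Z-disc) followed another course. It stood at 8.63, 8.86, 8.14, 9.11 and 7.27 at 120 min and at 9.43, 9.10, 9.38, 9.02 and 8.68 at the last biopsy. All pigs but pig 4 were higher, the groups overlapped, and the mean was 0.72 ± 0.24 (1.64-fold, 95% interval 1.17 to 2.32-fold; unadjusted p = 0.00649). Its first change was -0.16 ± 0.24, and in the 6 shunt pigs the later change was 0.85 ± 0.22, higher in each of them. FHL1, a stretch-sensing LIM protein, was higher in 5 of 5 control pigs by 0.12 to 0.31 (0.20 ± 0.09), after a first rise of 0.36 ± 0.09, and in the shunt pigs by 0.22 ± 0.08. Of the 18 measured genes of the list of stretch, natriuretic peptide and fetal cardiac genes, 4 had risen in the first step and 0 passed in the later one. Its later median was 0.01, with 10 estimates above 0 and 8 below.

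SPP1 (osteopontin, a matrix protein made by injured muscle and macrophages) belongs to the same list and rested on a single pig. It went from 8.01, 8.62, 6.36, 7.23 and 6.24 to 9.06, 8.26, 7.13, 6.33 and 9.32, so pig 5 gained 3.09 while pigs 2 and 4 were lower. The mean was 0.73 ± 0.36.

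**Figure D2:**
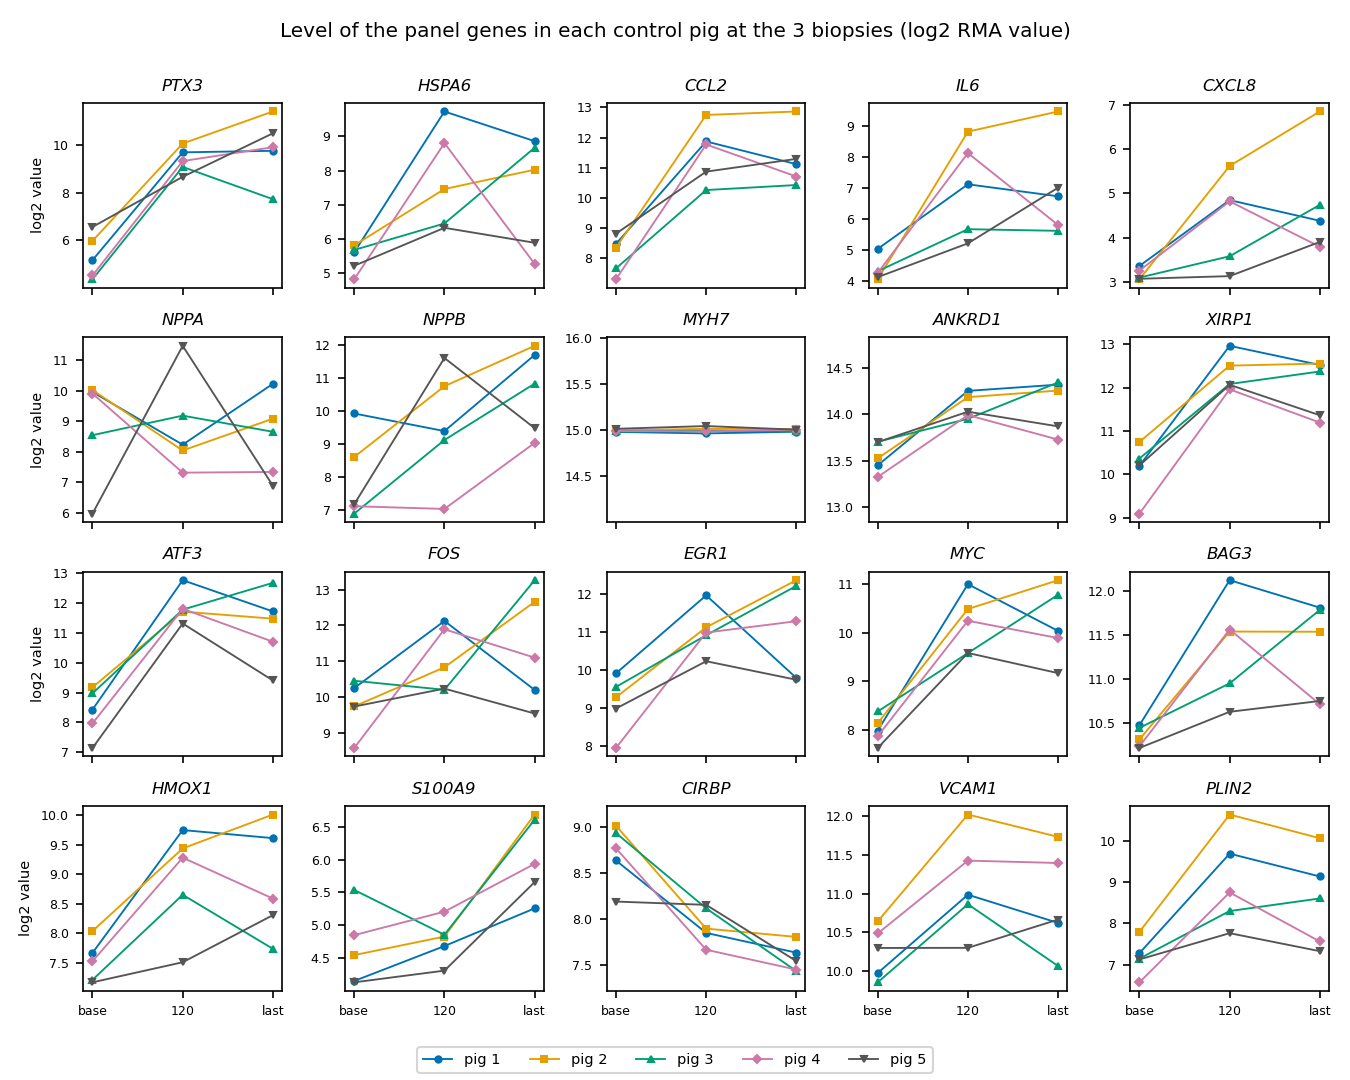
Log2 value (vertical axis) of each of the 20 panel genes at baseline, 120 min and the last biopsy (horizontal axis), with 1 line per control pig. Most lines climb to 120 min and then part, as for FOS, HSPA6 and IL6, whereas S100A9 is higher at the last biopsy in every pig.

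Immediate early genes, transcription factors and their regulators that are switched on without new protein synthesis, split by pig after 120 min. Of 19 measured members 12 had risen in the first step, with a median of 1.31, and 0 passed in the later step, with a median of -0.06. The mean of the list moved by -0.93, 0.58, 0.82, -0.22 and -0.52 in pigs 1 to 5. It was thus higher in pigs 2 and 3 and lower in the other pigs, and the mean over pigs was -0.06 ± 0.74 (SD, n = 5).

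FOS, a subunit of the transcription factor AP-1, gave the widest split. It stood at 12.12, 10.83, 10.20, 11.89 and 10.23 at 120 min and at 10.20, 12.66, 13.26, 11.10 and 9.54 at the last biopsy. Pig 3 gained 3.07 and pig 2 gained 1.83, whereas the remaining pigs gave -1.93, -0.79 and -0.70, so that the mean of 0.30 ± 0.63 hides changes of both signs. EGR1, a zinc finger factor, went from 11.97, 11.13, 10.92, 10.99 and 10.24 to 9.80, 12.37, 12.22, 11.29 and 9.75, again lowest against its earlier level in pig 1 (-2.17) and highest in pig 3 (1.30). MYC, a growth factor-induced regulator of ribosome production, gave -0.96, 0.60, 1.20, -0.36 and -0.42 in the pigs in order, with a mean of 0.01 ± 0.31. Its first change had been 2.18 ± 0.31 (4.55-fold).

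ATF3, a stress-induced repressor and among the highest rises of the panel at 120 min (3.53 ± 0.61), was lower on average. Its levels of 12.76, 11.71, 11.77, 11.80 and 11.31 became 11.71, 11.47, 12.67, 10.70 and 9.40, lower in every pig but pig 3. The mean was -0.68 ± 0.61, with an interval from 0.263 to 1.49-fold. All 5 pigs were still above their baseline levels of 7.14 to 9.17. The related list of growth arrest, p53 target and apoptosis genes had 6 of 15 members raised in the first step and 0 passing in the later step (median 0.01). The EGF receptor ligand and ERK feedback list had 3 of 7 raised and then 0 passing, with means of -0.06, 0.32, 0.41, -0.15 and -0.18 by pig.

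Cytokines and chemokines had estimates on both sides of 0, with wide intervals. PTX3, a pentraxin of the acute response made by vessel wall and myeloid cells, had risen by 4.02 ± 0.50 (16.2-fold) in the first step, the most of the panel. It then went from 9.68, 10.04, 9.07, 9.31 and 8.66 to 9.74, 11.38, 7.72, 9.89 and 10.47, higher in 4 pigs and at -1.35 in pig 3. The mean of 0.49 ± 0.50 had an interval from 0.690 to 2.86-fold.

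IL6, the main inducer of the acute-phase response, stood at 7.12, 8.82, 5.68, 8.13 and 5.22 at 120 min and at 6.74, 9.47, 5.62, 5.81 and 7.01 after the further step. Pig 4 lost 2.32 while pig 5 gained 1.79, and the mean was -0.06 ± 0.64. CCL2, the chemokine that draws monocytes, had risen by 3.39 ± 0.43 and then gave -0.76, 0.11, 0.17, -1.06 and 0.42 (mean -0.22 ± 0.43). CXCL8, which draws neutrophils, moved by -0.47, 1.23, 1.16, -1.02 and 0.77 (mean 0.33 ± 0.52). The later change was thus lowest in pig 4 for IL6, CCL2 and CXCL8.

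Of 23 measured genes of the cytokine, chemokine and NF-kB list 4 had risen in the first step and 0 passed in the later one, with medians of 0.31 and -0.02. IL1B, the interleukin made by activated myeloid cells, had the smallest p of that list, 0.43 ± 0.22 (unadjusted p = 0.0688), and was higher in all pigs but pig 4. Of the IL-6 and STAT3 acute-phase targets 5 of 14 had risen and 0 then passed. LBP, the plasma protein that binds bacterial endotoxin, gave 0.24 ± 0.10 (unadjusted p = 0.0271) at low levels that averaged 3.21 and then 3.45. Of the adhesion and endothelial activation genes 6 of 17 had risen and 0 then passed. VCAM1, which binds lymphocytes and monocytes on the vessel wall, gave -0.36, -0.29, -0.80, -0.03 and 0.37.

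Markers of neutrophils and monocytes were the one list of 36 whose mean was higher in all 5 pigs. Among 36 lists and with 5 pigs, 1 such list can arise by chance. The 7 measured markers gained 0.14, 0.41, 0.09, 0.31 and 0.48 in pigs 1 to 5, a mean of 0.29 ± 0.17 (SD, n = 5), where the first step had given 0.06 ± 0.15. No member passed, and 2 of the 7 had an unadjusted p under 0.05, as did 3.07% of all probe sets and 3 of the 74 genes of all marker lists. S100A9, a subunit of the calprotectin complex of granulocytes, had the highest estimate among them. It stood at 4.68, 4.83, 4.86, 5.21 and 4.31 at 120 min and at 5.26, 6.69, 6.61, 5.94 and 5.66 at the last biopsy, without overlap, where 0.296% of all probe sets did not overlap. In pig 3 S100A9 gained 1.75 while the list mean was 0.09, so the rise of the list in that pig rested on this gene.

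The later change of S100A9 was 1.25 ± 0.43 (2.38-fold, 95% interval 1.29 to 4.42-fold), with an unadjusted p of 0.00786. It was the largest estimate of any named gene, and its first change was 0.13 ± 0.43. In the shunt pigs it was 1.07 ± 0.39, higher in 5 of 6. S100A8, the partner subunit, was higher in 5 of 5 control pigs by 0.04 to 0.63 (0.28 ± 0.22).

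ITGAM, the alpha chain of the integrin Mac-1 on myeloid cells, was low at 3.78 to 4.10 and gave 0.20, 0.05, 0.18, 0.36 and 0.36 (0.23 ± 0.08; unadjusted p = 0.00541). The remaining probe set of that gene gave -0.01. CD14 and S100A12, the members with estimates below 0, gave -0.12 and -0.03. In the shunt arm the list averaged 0.32 ± 0.61 (SD, n = 6). Of the resident macrophage markers 0 of 6 passed, 4 estimates were above 0 and 2 below, and the list mean was 0.07 ± 0.18 (SD, n = 5), with pig 3 at -0.22. The extremes of that list were the scavenger receptors CD163 (0.26 ± 0.15, higher in each control pig by 0.09 to 0.35) and MARCO (-0.10). Of the lymphocyte markers 0 of 8 passed, with a median of -0.03 and a list mean of -0.04 ± 0.13 (SD, n = 5) that was above 0 in 3 of 5 pigs. The lowest of the 8, the T cell adhesion molecule CD2, gave -0.21 ± 0.09 (unadjusted p = 0.0326), and the highest, the T cell co-receptor CD4, gave 0.10.

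Heat shock proteins, chaperones that refold damaged proteins, moved in opposite directions in pigs 3 and 4. HSPA6, a strictly stress-inducible HSP70, stood at 9.73, 7.46, 6.46, 8.80 and 6.33 at 120 min and at 8.86, 8.03, 8.67, 5.28 and 5.89 at the last biopsy. Pig 4 lost 3.53 and came close to its baseline of 4.83, and pig 3 gained 2.21. The mean of -0.41 ± 0.82 had an interval from 0.234 to 2.42-fold, so a sizeable change either way was not excluded. BAG3, the co-chaperone that guards the Z-disc, gave -0.31, -0.00, 0.83, -0.85 and 0.12, with the same extremes. Over 27 measured members 5 had risen in the first step and 0 passed in the later one, and the list mean was -0.03, 0.08, 0.42, -0.39 and -0.09 in pigs 1 to 5.

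The cold-inducible RNA-binding proteins, whose levels follow temperature and stress, were a pair with opposite courses. CIRBP had fallen by 0.77 on the log2 scale in the first step (SE 0.15; adjusted p = 0.00285, limma with Benjamini-Hochberg adjustment). It then went from 7.85, 7.90, 8.12, 7.67 and 8.16 to 7.64, 7.81, 7.44, 7.45 and 7.55, lower in 5 of 5 pigs (-0.68 to -0.09), with overlap between the groups. The estimate was -0.36 ± 0.15 (95% interval 0.627 to 0.966-fold; unadjusted p = 0.0247), against -0.00 ± 0.14 in the shunt pigs. The difference between the arms was -0.36 ± 0.20 and did not pass. RBM3, which had risen by 0.50 ± 0.09, was higher in 5 of 5 control pigs by 0.01 to 0.26 (0.15 ± 0.09) and in 6 of 6 shunt pigs (0.31 ± 0.08).

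Among the metallothioneins and oxidative stress genes 4 of 20 had risen and 0 then passed. HMOX1, the haem-degrading enzyme, went from 9.74, 9.44, 8.65, 9.28 and 7.51 to 9.61, 10.01, 7.74, 8.59 and 8.31 (-0.07 ± 0.35), higher in pigs 2 and 5. MT1A, a metal-binding metallothionein, gave 0.64, -0.39, -2.63, 0.88 and 1.47, with pig 3 opposite to pigs 1, 4 and 5. The unfolded protein and integrated stress response list had 3 of 14 raised and then 0 passing. Its smallest p belonged to DNAJB9, a chaperone of the endoplasmic reticulum, with 0.47 ± 0.20 (unadjusted p = 0.0283), of which pig 3 alone gave 1.69.

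**Figure D3:**
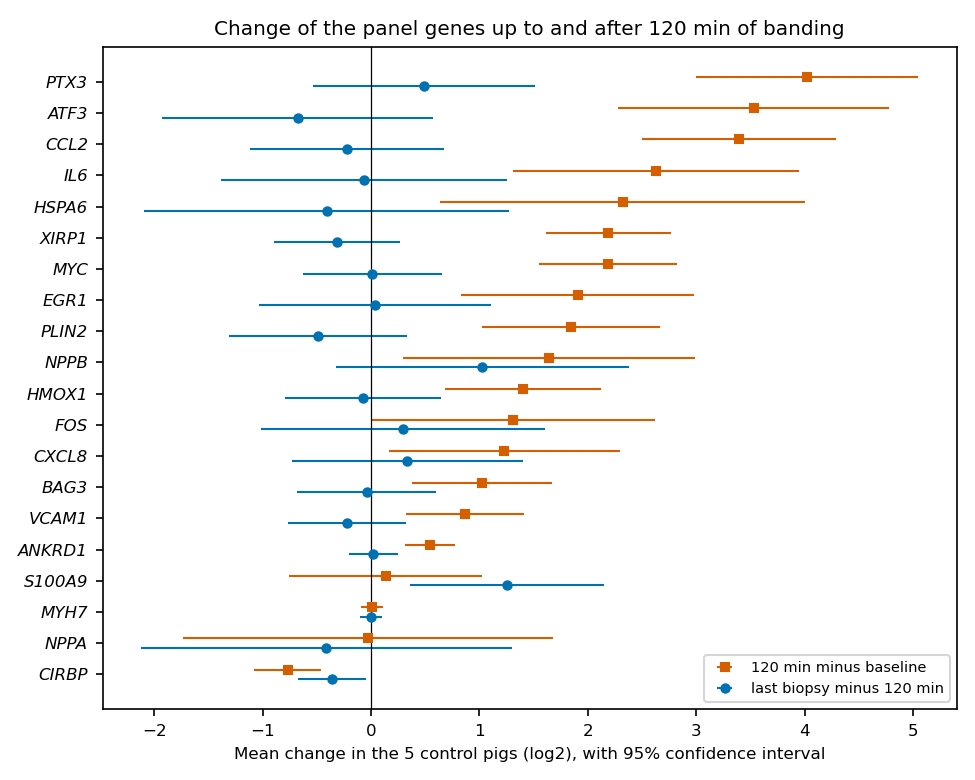
Mean change in the 5 control pigs with its 95% confidence interval (horizontal axis, log2) for each of the 20 panel genes (vertical axis), for the step up to 120 min and the step after it. Of the later intervals 8 stay within 2-fold of no change and 12 reach past it, and only those of S100A9 and CIRBP exclude 0.

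Of the 20 panel genes, chosen to stand for the processes above, 12 had risen and 1 had fallen in the first step, and 0 passed in the later one. CIRBP and S100A9 were the 2 members with the same direction in every pig. The panel was higher in 6, 14, 13, 6 and 8 of its genes in pigs 1 to 5.

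Lipid genes that had risen had later estimates below 0, without passing. ANGPTL4, a secreted inhibitor of lipoprotein lipase that is induced by fatty acids and low oxygen, had risen by 2.20 ± 0.34 (4.59-fold). It went from 10.05, 10.74, 8.06, 9.44 and 8.65 to 8.23, 10.25, 8.41, 8.44 and 7.78, lower in all pigs but pig 3. The estimate was -0.76 ± 0.34 (95% interval 0.361 to 0.960-fold; unadjusted p = 0.0348), and a further probe set of the gene gave -0.72. PLIN2, the coat protein of lipid droplets, had risen by 1.84 ± 0.40 and then gave -0.55, -0.57, 0.30, -1.19 and -0.44 (-0.49 ± 0.40).

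The metabolic enzymes as groups had medians near 0. In the fatty acid list 0 of 34 passed (median -0.00), in the tricarboxylic acid cycle list 0 of 22 (median -0.00) and in the oxidative phosphorylation list 0 of 31 (median 0.04). For all 31 oxidative phosphorylation genes the whole 95% interval lay within 1.5-fold of no change. Their mean moved by 0.15, -0.20, 0.18, -0.04 and 0.10 in pigs 1 to 5, and that of the tricarboxylic acid cycle by 0.10, -0.22, 0.29, -0.21 and 0.06. These are the pigs that the GAPDH, actin and BioB measures above also divided, and the part of RNA quality or array handling in these shifts was not tested. Ventricular cardiomyocyte markers moved alongside, by 0.05, -0.12, 0.12, -0.11 and 0.11.

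Glycolysis, glucose uptake and hypoxia genes had 3 raised and 1 lowered of 27 in the first step and 0 passing in the later one (median 0.00). LDHA, a subunit of lactate dehydrogenase, was higher in 5 of 5 pigs by 0.13 to 0.48 (0.24 ± 0.12; unadjusted p = 0.0473), though its levels of 9.71 to 11.01 and then 9.84 to 11.16 overlapped widely. VEGFA, the endothelial growth factor induced by low oxygen, had risen by 0.71 ± 0.12 and then gave -0.19 ± 0.12.

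Genes of the contractile apparatus had narrow intervals around 0. MYH7 gave 0.02, -0.00, -0.01, 0.02 and -0.04 in the pigs in order, with an estimate of -0.00 ± 0.05 and an interval from 0.929 to 1.07-fold, at levels close to the highest in the table (15.2). A probe set this bright may be saturated, which would hide a change, so the narrow interval does not show a steady level. Of 17 measured sarcomere genes 0 passed, all 17 intervals lay within 1.5-fold of no change, and the list mean stayed between -0.03 and 0.03 in every pig. TCAP, the titin cap of the Z-disc, and MYOM2, an M-band protein, were lower in 5 of 5 pigs, by -0.12 ± 0.07 and -0.15 ± 0.09. The channel, calcium handling and gap junction list had 0 of 18 passing, with a median of 0.04.

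The other lists also held 0 passing genes each. Their later medians were 0.04 for ribosome biogenesis (22 genes), 0.04 for translation factors (15), 0.00 for extracellular matrix (31), -0.02 for protein breakdown and autophagy (21), -0.09 for interferon-stimulated genes (19), -0.09 for glucocorticoid-induced genes (17) and -0.01 for clock genes (7). The interferon list split pig 1 (-0.45) from pig 5 (0.33). CAPN3, a muscle calpain in the protein breakdown list, gave 0.33 ± 0.14 (unadjusted p = 0.0233). Over the 24 process lists 431 distinct genes were measured, of which 9 had an unadjusted p under 0.05 (3.07% of all probe sets did), and over the 12 marker lists 3 of 74. No process list moved in the same direction in all 5 pigs. The list medians ran from -0.11 to 0.21, beside a median of 0.00 over all 6765 genes.

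Endothelial (10 genes), fibroblast (7), smooth muscle and pericyte (6), platelet (3), adipocyte (4) and mesothelial (4) markers gave means over pigs between -0.03 and 0.04, each smaller than its SD. The 2 measured erythrocyte markers, ALAS2 and HBB, moved by 0.70, -0.28, 0.53, 0.00 and -0.58 as a mean, with no shared direction.

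**Figure D4:**
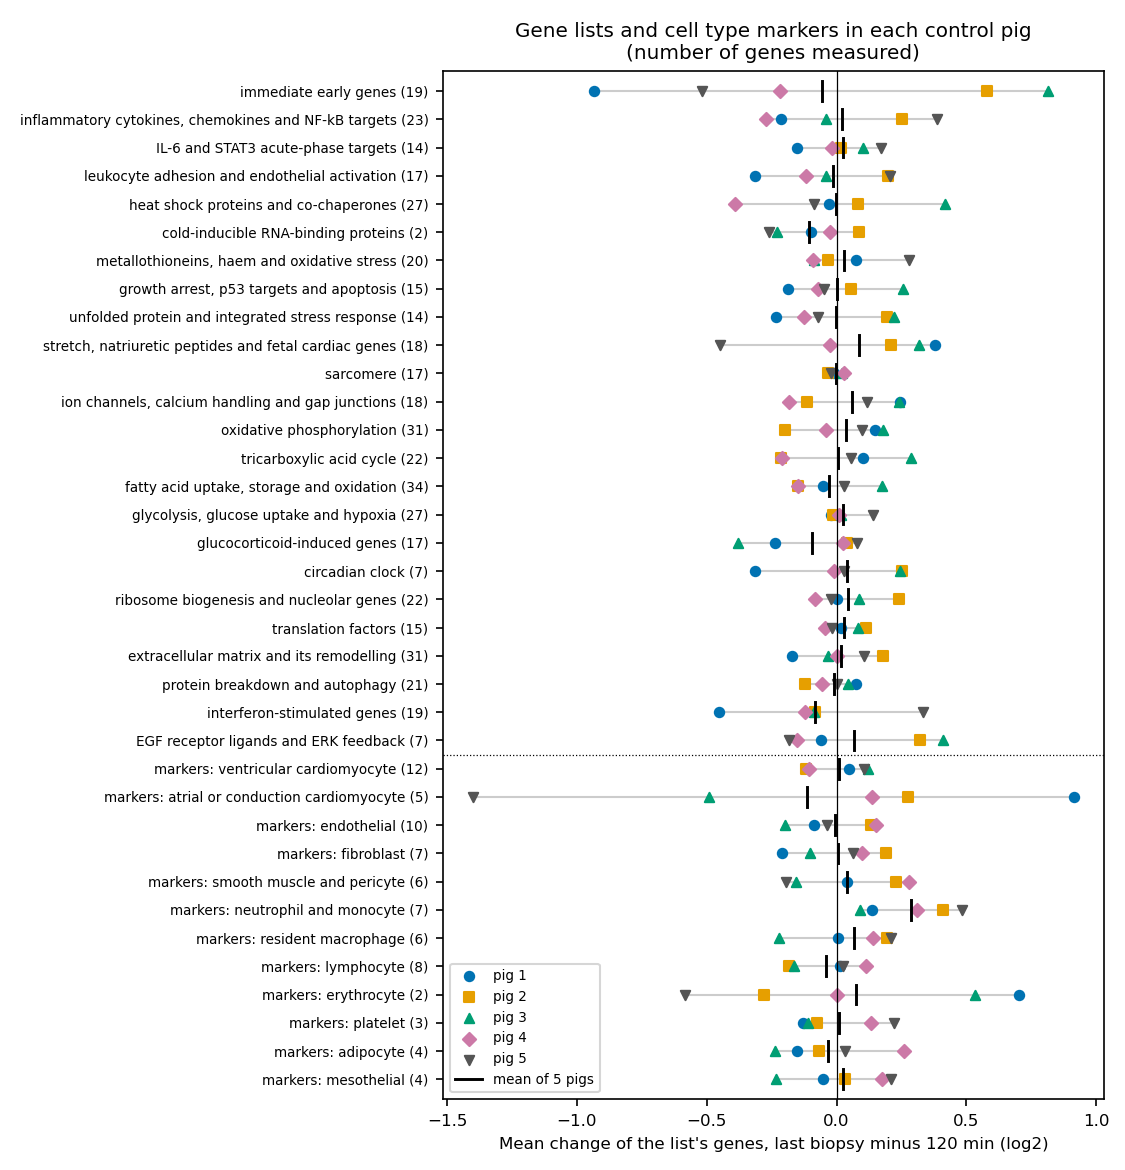
Mean later change of the measured genes of each list (horizontal axis, log2; number of genes beside each name) in each of the 5 control pigs, with a bar at the mean. The neutrophil and monocyte markers lie right of 0 in every pig, whereas immediate early genes spread from -0.93 to 0.82.

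The genes with the largest shift in each pig were chosen here after their values were seen. Each shift is 1 array against another, so the animal's course, the sampled piece of wall, RNA quality and array handling cannot be told apart. In pig 1 the falls were led by EGR1 (-2.17), RRAD, a small GTPase that restrains calcium channels (-1.95), FOS (-1.93), ANGPTL4 (-1.81) and IER2 (-1.38). The rises of pig 1 were led by NPPB (2.31) and NPPA (2.00), followed by the red cell gene AHSP (1.77). Pig 2 had S100A9 (1.86), FOS (1.83), PTX3 (1.34) and EGR1 (1.24) at its head.

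In pig 3 FOS (3.07), HSPA6 (2.21) and the EGF receptor ligand AREG (2.00) led the rises and MT1A (-2.63) the falls. Pig 4 was led downward by HSPA6 (-3.53), IL6 (-2.32), the HSP70 gene listed as HSP70.2 (-1.74) and SERPINB2, an inhibitor of plasminogen activation (-1.58). Pig 5 had SPP1 (3.09), the thin filament gene NEB (2.57) and the metallothionein MT-2B (2.23) highest, and NPPA (-4.59), PDYN, an opioid peptide precursor (-3.11), and NPPB (-2.13) lowest. Genes over 2-fold higher or lower numbered 16 and 19 in pig 1, 14 and 2 in pig 2, 82 and 8 in pig 3, 1 and 23 in pig 4, and 16 and 23 in pig 5. The arrays of pigs 3 and 4 thus moved opposite ways. Over 2-fold higher in pig 3 and over 2-fold lower in pig 4 were 29 probe sets, against 0 the other way round. The GAPDH, actin and BioB measures above also divided these pigs, and their part in this was not tested.

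No gene passed, and those of smallest p, 10 for each sign, were as follows. Higher were CEP295, ADAM28, CCNB1, ITGAM, PKIB, XIRP2, APITD1, LACTB2, ELOVL3 and S100A9, with unadjusted p from 0.00335 to 0.00786. ADAM28, a membrane-bound metalloprotease of leukocytes, went from 4.77, 4.70, 4.82, 4.78 and 4.86 to 5.21, 4.92, 4.93, 5.02 and 5.17, without overlap (0.27 ± 0.08). CEP295, a centriole protein, was higher by 0.15 to 0.35 in 5 of 5 pigs (0.24 ± 0.07), and CCNB1, the mitotic cyclin B, by 0.50 ± 0.16 in 4 of 5. PKIB, an inhibitor of protein kinase A, gave 0.59 ± 0.20, of which pig 5 contributed 1.48. The remaining estimates, those of APITD1, LACTB2 (a mitochondrial ribonuclease) and ELOVL3 (a fatty acid elongase), were 0.34, 0.32 and 0.28.

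Lower were DGKA, PANK1, NOSTRIN, RITA1, GLRB, TMEM175, RAG1, INPP1, WNT10B and GPRC5C, with unadjusted p from 0.00209 to 0.0102. DGKA, a kinase that removes the second messenger diacylglycerol, went from 5.36, 5.45, 5.47, 5.30 and 5.51 to 5.26, 5.0, 5.08, 5.13 and 4.72, without overlap (-0.38 ± 0.11; 95% interval -0.61 to -0.15). PANK1, which starts the synthesis of coenzyme A, was lower by 0.09 to 0.69 in 5 of 5 pigs (-0.41 ± 0.13) and gave -0.63 ± 0.12 in the shunt pigs, where it was lower in 6 of 6. Its other probe sets, at lower levels, gave -0.01 and -0.00 in the control pigs. NOSTRIN, an adaptor that draws endothelial nitric oxide synthase off the membrane, gave -0.27 ± 0.09, lower in 4 of 5.

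TMEM175, a lysosomal potassium channel, and WNT10B, a Wnt ligand, also did not overlap between the biopsies (-0.27 ± 0.10 and -0.24 ± 0.09). RITA1, GLRB, RAG1 and INPP1 had risen in the first step, by 0.35, 0.32, 0.27 and 0.25, and their later estimates were -0.24, -0.24, -0.23 and -0.22. In all, 6 of the 171 named genes had biopsies that did not overlap (0.296% of all probe sets), and since the smallest p values chose part of these genes, nothing follows from that count. The 2 probe sets with the smallest p of all, and the only ones with an adjusted p of 0.871, carry no gene symbol in the annotation used. They gave -0.32 ± 0.07 and -0.76 ± 0.16 and were lower in 5 of 5 pigs.

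**Figure D5:**
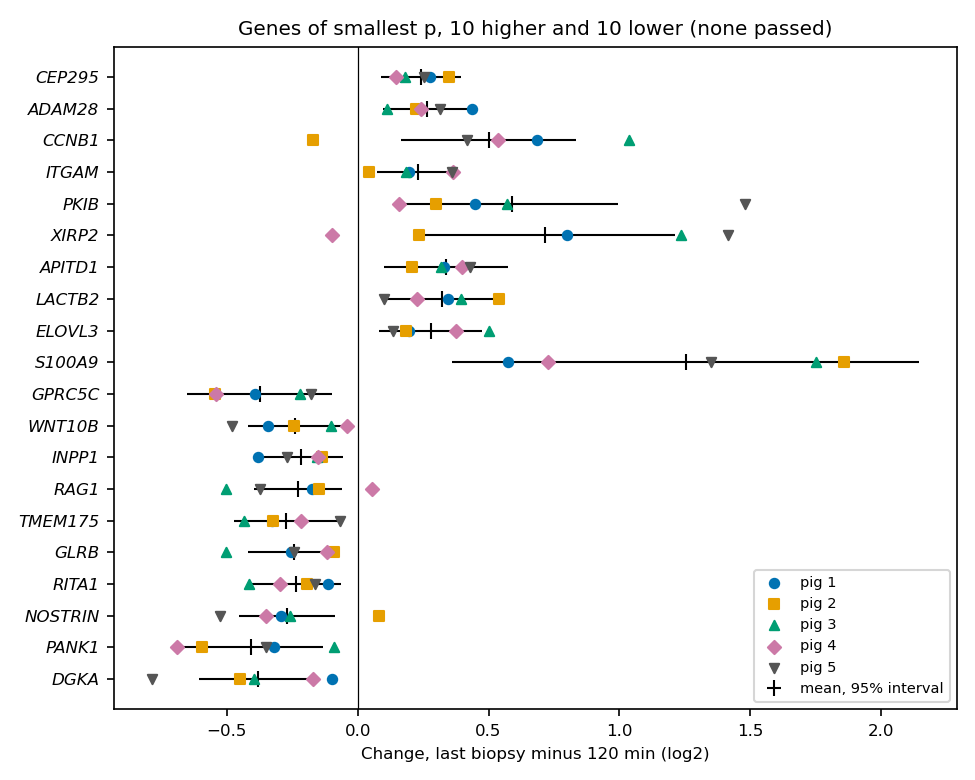
Later change (horizontal axis, log2) in each control pig, with the mean and its 95% confidence interval, for 10 genes of smallest p above 0 and 10 below (vertical axis). The estimates run from -0.41 for PANK1 to 1.25 for S100A9, and those of XIRP2 and S100A9 are the only ones above 0.60.

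The further hour was also set against the same hour in the 6 pigs that received the shunt, which asks whether continued banding alone and banding with the shunt differed. The difference between the arms in the later change passed in 0 of 23999 probe sets (0%), with a smallest adjusted p of 0.9997 (limma, Benjamini-Hochberg) and 737 probe sets (3.07%) at an unadjusted p under 0.05, 369 higher and 368 lower. That this total equals the 737 of the control arm's own change is a coincidence, as 180 probe sets are in both. In the shunt arm itself 0 probe sets (0%) passed and 2146 (8.94%) had an unadjusted p under 0.05.

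The smallest p in the direction of a higher control arm belonged to TRAF6, ELOVL3, C7H14orf1, CCL8 and SNAP91, and in the other direction to CYP3A29, CDH6, POGK, FARSA and NME3. TRAF6, the ubiquitin ligase of toll-like and interleukin-1 receptors, was higher by 0.19 to 0.46 in 5 of 5 control pigs (0.29 ± 0.15) and gave -0.39 ± 0.14 in the shunt pigs, lower in 6 of 6, a difference of 0.68 ± 0.20. CCL8, a monocyte chemokine, gave 0.08 ± 0.18 and -0.65 ± 0.16. CYP3A29, a cytochrome P450, was lower in 5 of 5 control pigs (-0.29 ± 0.15) and higher in 6 of 6 shunt pigs (0.41 ± 0.13). CDH6, a cadherin that averaged 2.97 at 120 min in the control pigs, differed by -0.40 ± 0.12. Together with C7H14orf1 and NME3, a nucleoside diphosphate kinase, TRAF6, CYP3A29 and CDH6 moved one way in every control pig and the other way in every shunt pig, as did 17 of the 23999 probe sets. As the smallest p for this same difference chose these genes, nothing follows from their separation by arm. None of the differences passed the threshold.

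None of the 20 panel genes passed in the difference between the arms. The difference in the later change, control minus shunt, was furthest from 0 relative to its error for CIRBP (-0.36 ± 0.20) and HMOX1 (-0.58 ± 0.47). It was -0.09 ± 0.67 for PTX3, 0.08 ± 0.88 for NPPB, 0.19 ± 0.58 for S100A9, 0.73 ± 0.86 for FOS and 0.03 ± 0.07 for MYH7. The intervals of PTX3, NPPB, S100A9 and FOS reached past 2-fold, so differences of that size between the arms were not excluded by these 11 pigs.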

How the data were processed

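The deposited table holds RMA values on the log2 scale, 1 per probe set and array, which the authors made, per the submitters' processing notes. RMA corrects the background, quantile normalises arrays together and summarises the probes of a set. The sources used here do not name the software, its version or which arrays were normalised as 1 set. Quantile normalisation gives all arrays nearly the same distribution, so a shift of all transcripts at once would not be seen. The values were used as deposited, without filter or floor. The number of arrays, not a read depth, sets the precision.

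All 33 arrays entered 1 model in limma 3.58.1 (lmFit, eBayes; R 4.3.3). Coefficients were fitted for each pig and, within each arm, for the 120 min and last biopsies, so the 6 groups shared 1 estimate of spread with 18 residual degrees of freedom. Tests were two-sided, adjusted by Benjamini-Hochberg over 23999 probe sets, with a threshold of 0.05. Errors are SE of fitted changes, or SD over pigs where stated. The procedure was tested on simulated data. Pig was a block because the labels name the animal behind each biopsy. After removal of group means, arrays of the same pig at the later 2 biopsies correlated with r of 0.081 to 0.572 (median 0.365). Those of different pigs gave a median of -0.202, which removal of group means by itself pushes below 0. Of these 10 arrays 8 were closest to the other array of their own pig.

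Symbols came from the platform annotation, which can be old. Of the tested probe sets 10069 had 1 symbol, 198 several and 13732 none, and RefSeq held 9961 of those with 1 symbol. Where several single-symbol probe sets named 1 gene (2261 of 6765 genes), the brightest on average stood for it. No genome was used, so positions, and the motifs of promoters, were not analysed here.

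Named were the 10 genes of smallest p in each direction where under 5 passed, up to 4 members of smallest p of each list, a panel of 20, and the 5 of smallest p in each direction for the difference between the arms. The members, the lists and the panel were chosen with earlier results of these data known. The alternatives were median centring, a second quantile normalisation, leaving out the pig block, random pig effects (statmod 1.5.0), fewer arrays in the fit, an intensity trend with robust eBayes, the lowest 30% of probe sets left out, array quality weights, 1 probe set per gene, a threshold of 0.10, the mean of a gene's probe sets for lists, and each control pig left out.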

Additional observations from a re-analysis of the deposited data

Results flagged for a closer look

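Single pigs stood far from the others in the later change of 6 of the 171 named genes and in the mean of 1 of the 36 lists. The distance was judged by Dixon's test at 95%, which chance alone passes in about 1 of 20 groups.

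NPPB, B-type natriuretic peptide, was at -2.13 in pig 5 against 1.23 to 2.31 in the other pigs. CNN1, the smooth muscle protein calponin, was at -0.59 in pig 5 against 0.23 to 0.43. GBP2, an interferon-induced GTPase, was at 0.42 in pig 5 and between -0.46 and -0.24 elsewhere. In the same pig the glycolysis, glucose uptake and hypoxia list averaged 0.14, against -0.02 to 0.02 in the others. GADD45A, a growth arrest gene that had risen by 2.05 ± 0.31 (SE) at 120 min, gained 1.47 in pig 3, with the others between -0.38 and 0.13. NR2F2, a nuclear receptor of atrial and venous cells, was at -0.77 in pig 3 against -0.05 to 0.22. MRC1, the macrophage mannose receptor, was at 0.58 in pig 2 against -0.09 to 0.09.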

How the results depend on the processing

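The later change called 0 probe sets in the fit as deposited and under all 16 alternatives that gave a count, leave-outs included, and the difference between the arms called 0 under each alternative that applies to it. Without the replicate block, that is with no pig term, the later change called 0 probe sets and the first change 507 (279 higher, 228 lower). The first change also moved with 1 probe set per gene tested, to 504 (241 higher, 263 lower, out of fewer probe sets), and at an adjusted p of 0.10, to 2539 (1477 lower). With each control pig left out it ranged from 662 to 1779 probe sets, 321 to 706 higher and 341 to 1073 lower, lowest without pig 1 (662), pig 2 (719) and pig 3 (924). The cause was not tested. For the later change, leaving out pigs 1 to 5 in turn gave 633, 897, 768, 1542 and 676 probe sets at an unadjusted p under 0.05. None of the 171 named genes passed under any setting, and the smallest adjusted p was 0.0843 (limma, Benjamini-Hochberg), for S100A9 with only the control arm's arrays in the fit. Its estimate was 1.10 to 1.42 on leaving out each pig. The sign of the later change turned in 10 named genes under other settings and in 42 on leaving out a pig, none of them past the threshold on either side. No list mean moved by more than its SD over pigs. Leaving out 1 of 5 pigs cannot move a mean that far, so for the leave-outs nothing follows from this. Signal near background limits the low genes among these, such as ITGAM and CDH6, whose values lie close to the bottom of the range (2.21).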

Other observations

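Transcripts that moved the same way in both arms over the last step belong in no comparison above, because the arms were not pooled in a test. The genes below were picked after their values were seen. How many of all probe sets moved one way in both arms was not counted, so nothing follows from the shared direction. RBM3, FHL1 and S100A9 were higher in each of the 5 control pigs, and in 6, 6 and 5 of the 6 shunt pigs. The later changes of RBM3 were 0.15 ± 0.09 and 0.31 ± 0.08 (SE) in the control and shunt arms, and those of FHL1 were 0.20 ± 0.09 and 0.22 ± 0.08. PANK1 was lower in all 11 pigs, though its other probe sets hardly moved in the control pigs. XIRP2 was higher in 10 of 11, the exception being control pig 4 at -0.10.

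A pair of probe sets without a symbol in the annotation used, assigned to 1 transcript cluster by their identifiers, were higher in 5 of 5 control pigs by 0.85 ± 0.22 and 0.64 ± 0.17, after first changes of -0.64 and -0.77, and gave 0.55 and 0.68 in the shunt arm. A further probe set without a symbol gave 1.21 ± 0.54 and was higher in 5 of 5 control pigs, with 0.18 in the shunt arm.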
